A study of Mus musculus with 56 samples.

Results

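The genes described here are the 4 TCF/LEF transcription factor genes (Tcf7, Lef1, Tcf7l1 and Tcf7l2), the beta-catenin gene Ctnnb1, 3 genes of the complex that destroys beta-catenin (Apc, Axin1 and Gsk3b), the target gene Sp5 and the coactivator gene Bcl9. They were chosen by name, and all 10 were found among the 24410 genes of the deposited expression table. The study measured RNA in single epithelial tumor cells of the mouse colon, and its title ties the transcription factor PROX1 to quiescent colon cancer stem cells and recurrence after chemotherapy. All cells came from 1 male ApcMin/+ mouse, which carries a truncating germline allele of Apc, so every cell descends from an animal with this mutation. The mouse drank 2% dextran sulfate sodium, an agent that injures the colonic lining, for 5 days from 10 weeks of age, and was 12 weeks old at sampling. Its 3 tumors were mixed, cells with the surface phenotype DAPI-Cd31-Cd45-Epcam+Cd24+ were sorted singly, and only cDNAs in which a PCR of 32 cycles detected Lgr5, an intestinal stem cell gene, were sequenced. The labels give 1 group with no control cells, so the values below describe cells of 1 animal and carry no test and no p-value.

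In the canonical Wnt pathway, a complex built on the scaffolds APC and AXIN1 lets the kinase GSK3B mark beta-catenin for degradation. When the complex fails, beta-catenin enters the nucleus, binds a TCF/LEF protein on DNA and recruits BCL9, which turns target genes on; without beta-catenin the same TCF/LEF proteins hold Groucho/TLE repressors. Loss of APC is the usual first step of colon tumors, and beta-catenin also has a structural role at cell junctions, where it binds E-cadherin. The pathway acts mostly on the stability of the beta-catenin protein, which RNA levels do not show.

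TCF/LEF proteins recognise short DNA motifs, so the bases upstream of the genes of a direct target (Sp5) and of a pair of TCF/LEF genes are shown for reference. RefSeq start sites on GRCm38.p6 gave 14 upstream windows of 250 bases for 8 of the 10 genes, and each was searched on both strands for 4 motifs: CTTTGAA, its relative CTTTGAT, the form CTTTGTA and the form CTTTGTT. They differ only in their last 2 letters, so no pair of them can match the same bases on 1 strand. Matches, in capitals, were found in 3 of the 14 windows. Of the 32851 mouse windows of the same length, 14.8% held at least 1 match and 1.43% held 2 or more, so a single match is common. The Sp5 window (chr2:70474673-70474922, plus strand) held 2, at 222 and 104 bases before the start site. The first window of Lef1 (chr3:131110047-131110296, plus strand) and the first of Tcf7l2 (chr19:55741560-55741809, plus strand) held none.
Sp5: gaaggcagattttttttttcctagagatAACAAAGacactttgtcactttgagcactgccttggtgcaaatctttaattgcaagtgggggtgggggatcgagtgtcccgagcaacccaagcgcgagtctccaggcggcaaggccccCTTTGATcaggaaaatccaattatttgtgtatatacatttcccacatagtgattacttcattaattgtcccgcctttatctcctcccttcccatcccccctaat
Lef1: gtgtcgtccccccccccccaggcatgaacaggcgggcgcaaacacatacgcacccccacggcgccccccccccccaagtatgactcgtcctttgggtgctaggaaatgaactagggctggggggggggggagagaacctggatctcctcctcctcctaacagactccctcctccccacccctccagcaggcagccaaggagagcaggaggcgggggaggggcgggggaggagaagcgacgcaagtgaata
Tcf7l2: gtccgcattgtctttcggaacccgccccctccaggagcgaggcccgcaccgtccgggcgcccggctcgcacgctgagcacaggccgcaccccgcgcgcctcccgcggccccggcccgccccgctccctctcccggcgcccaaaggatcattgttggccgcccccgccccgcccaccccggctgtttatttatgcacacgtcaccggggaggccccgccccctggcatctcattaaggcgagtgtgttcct
The other matches lay before internal start sites, 147 bases upstream of one of Lef1 and 14 bases upstream of one of Tcf7l2. A match describes letters only, since no binding was measured.

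Values are TPM (transcript levels scaled by transcript length to a fixed total), which allow levels to be set side by side between genes but keep no read depth. There were 56 libraries. In 6 pairs of them Pearson's r was 0.957 to 0.992, against 0.782 for the next pair, so each pair was averaged and 50 cells remained. A gene was called seen at 1 TPM or more, and a median of 5903 genes were seen in a cell. The epithelial markers were present, with 9 of 11 seen in at least 25 cells and Epcam and Cd24a in all 50, although the intestinal factor gene Cdx2 was seen in 2. Defining markers of other lineages were seen in no cell: Ptprc, Cd3e and Cd3g of leukocytes, Pecam1, Kdr and Plvap of endothelium, Col1a2, Col3a1, Dcn and Pdgfrb of fibroblasts, and all 5 enteroendocrine genes. Other genes of these lists were seen: Csf1r in 21 cells, Cd68 in 10 and Cd79a, Lyz2 and Itgam in 1 each, Vwf in 5 and Cdh5 in 1, and Pdgfra in 25, Acta2 in 23 and Col1a1 in 1. The summed level of a list had a median of 0.885 TPM for the leukocyte, 0.0175 TPM for the endothelial and 3.69 TPM for the fibroblast genes, with highest cells at 246, 13.3 and 148 TPM. Of the goblet list, Agr2 was seen in 25 cells, Spink4 in 8, Tff3 and Zg16 in 2 each, Muc2 and Fcgbp in 1 each and Clca1 in none. Of the tuft list, Dclk1 was seen in 3 cells and Pou2f3, Trpm5 and Gnat3 in none. Of the colonocyte list, Car1 was seen in 44 cells, Guca2a in 6 and Car4, Aqp8, Slc26a3 and Krt20 in none. A pair of cells stood apart. In one, 1316 genes were seen and 85.1% of TPM came from the transcript Gm10925. In the other, the Paneth genes took 29% of TPM, against at most 0.151% elsewhere. Ctnnb1, at 83.6 and 23.3 TPM, was the single member seen in these cells.

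Of the 10 genes, 6 were seen in at least 25 of the 50 cells, against 22.6% of all genes in the table. Ctnnb1 was seen in every cell, Tcf7 in 37, Tcf7l2 in 35, Axin1 in 34, Apc and Sp5 in 30 each, Gsk3b in 20, Lef1 in 18, Bcl9 in 15 and Tcf7l1 in 6. A cell held a median of 5.5 of the 10 genes, from 1 to 9. The count of a low gene depends on the threshold, and a low value cannot be told apart from RNA that was missed.

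**Figure D1:**
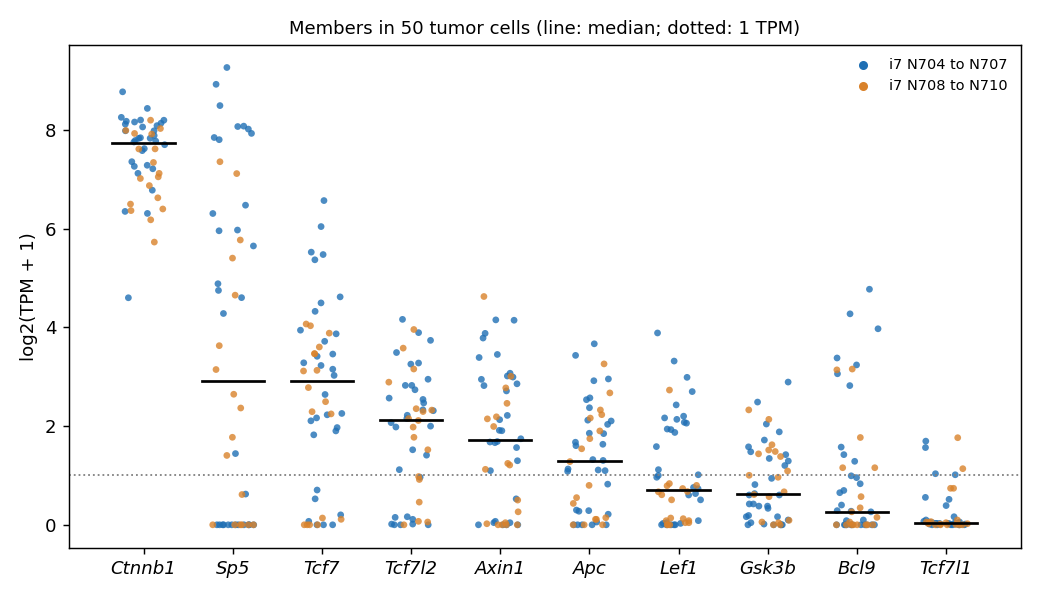
Each point is 1 of 50 cells, on a log2(TPM + 1) scale, colored by the set of i7 indexes of its library; black lines are medians and the dotted line is 1 TPM. Ctnnb1 lies above 4 in every cell, Sp5 spreads from 0 to above 9, and orange points of Lef1 lie below the dotted line except for 1 cell.

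Tcf7 (ENSMUSG00000000782, chr11:52252371-52283014 on GRCm38, minus strand) encodes TCF1, which is both a partner and a target of beta-catenin. Its lowest, median and highest levels were 0, 6.52 and 94.2 TPM, and it was seen in 74% of cells (95% exact interval 59.7% to 85.4%, covering counting error only). The highest levels were uneven: the 5 highest cells held 49.4% of the Tcf7 TPM summed over cells. Short forms of TCF1 that lack the beta-catenin binding part exist, and a value per gene does not separate them from the full protein.

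Tcf7l2 (ENSMUSG00000024985, chr19:55741820-55933654, plus strand) encodes TCF4, the main TCF of normal intestinal crypts. It ranged from 0 to 16.9 TPM with a median of 3.39 TPM and was seen in 70% of cells (55.4% to 82.1%). Its spread was narrower than that of Tcf7, with 33% of its summed TPM in the 5 highest cells.

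Lef1 (ENSMUSG00000027985, chr3:131110471-131224356, plus strand), a factor low in normal colon epithelium and known to be raised by Wnt activity in colon cancer, ranged from 0 to 13.8 TPM with a median of 0.628 TPM. It was seen in 36% of cells (22.9% to 50.8%). These cells were unevenly divided among the libraries: Lef1 was seen in 17 of 32 cells with i7 indexes N704 to N707 and in 1 of 18 with N708 to N710, with medians of 1.01 and 0.26 TPM. The first set had a median of 5849 genes per cell and 7.75% of TPM in Gm10925, the second 6037 genes and 12.7%, and all 6 averaged pairs were in the second. The labels do not say what the index sets share beyond the index, and the part of these differences in the Lef1 result was not tested, so values within the sets are also given for the main relations of Lef1.

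Tcf7l1 (ENSMUSG00000055799, chr6:72626378-72789254, minus strand) encodes TCF3, a factor that acts mostly as a repressor. Its median was 0.02 TPM, its highest level 2.4 TPM, and it was seen in 12% of cells (4.53% to 24.3%). The order of the family was therefore Tcf7, Tcf7l2, Lef1 and Tcf7l1. The interquartile ranges of Tcf7 and Tcf7l2 overlapped, and Tcf7 exceeded Tcf7l2 in 32 cells and lay below it in 18.

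Most cells held more than 1 family member. At least 2 of the 4 TCF/LEF genes were seen in 34 of 50 cells (68%, exact interval 53.3% to 80.5%), 3 were seen in 16 cells, all 4 in none, and none of them in 4 cells. Tcf7 with Tcf7l2 was the most frequent combination (12 cells), followed by Tcf7, Lef1 and Tcf7l2 (11), Tcf7l2 alone (6) and Tcf7 alone (5). Lef1 without any other TCF/LEF gene was seen in 1 cell. The highest TCF/LEF gene of a cell was Tcf7 in 30 cells, Tcf7l2 in 17 and Lef1 in 3. Of the 4 cells with none, 2 are those described above as standing apart.

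**Figure D2:**
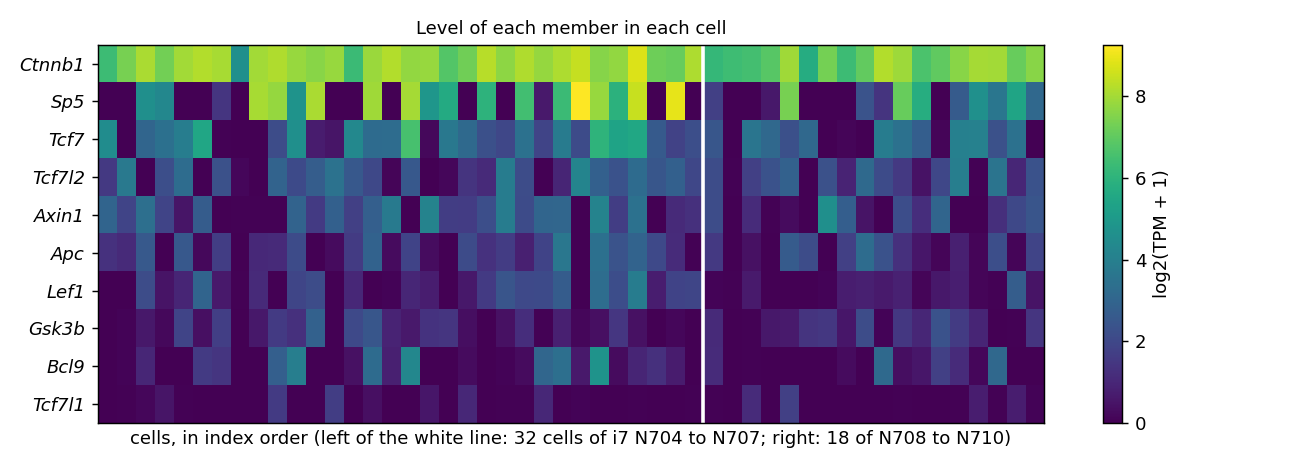
Each column is 1 of 50 cells in the order of its indexes and each row a gene; color gives log2(TPM + 1). Ctnnb1 is bright throughout, Sp5 changes between dark and bright from cell to cell, and most Lef1 color lies left of the white line, where 17 of 32 cells reached 1 TPM against 1 of 18 to its right.

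Ctnnb1 (ENSMUSG00000006932, chr9:120929216-120960507, plus strand) was the most abundant of the 10 by median and the one seen in every cell. Its lowest, median and highest levels were 23.3, 212 and 438 TPM, and its interquartile range was 133 to 259 TPM. Among all genes of the table, 98.5% had a lower mean on the log2 scale. Its median was 227 TPM with i7 N704 to N707 and 135 TPM with N708 to N710. Overlapping annotated genes (Ulk4, 4930593C16Rik and Mir7090) were seen in no cell.

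Bcl9 (ENSMUSG00000038256, chr3:97203662-97297917, minus strand), the adaptor between beta-catenin and Pygopus proteins, was rare and uneven. It was listed at 0 in 19 cells, had a median of 0.205 TPM and reached 26.4 TPM. It was seen in 30% of cells (17.9% to 44.6%), with a median of 7.35 TPM in those, and the 5 highest cells held 63.1% of its summed TPM. Its paralog Bcl9l was seen in 16 cells and the Pygopus gene Pygo2 in 36, with a median of 31.4 TPM, whereas Pygo1 was seen in 4.

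In the destruction complex, the scaffold gene Axin1 (ENSMUSG00000024182, chr17:26138688-26195811, plus strand) ranged from 0 to 23.7 TPM with a median of 2.29 TPM. Apc (ENSMUSG00000005871, chromosome 18, 34220924 to 34322552, plus strand), the tumor suppressor mutated in this strain, ranged from 0 to 11.7 TPM with a median of 1.45 TPM. The kinase gene Gsk3b (ENSMUSG00000022812, chr16:38089001-38246084, plus strand) ranged from 0 to 6.43 TPM with a median of 0.54 TPM. All 3 were low in most cells: Axin1 reached 10 TPM in 5 cells, Apc in 1 and Gsk3b in none. They were seen in 68% (53.3% to 80.5%), 60% (45.2% to 73.6%) and 40% (26.4% to 54.8%) of cells. Values per gene do not separate the Min allele of Apc from the normal one, so allele loss could not be read. Several other parts of the complex were more abundant. Of the 20 further destruction complex and regulator genes in the table, 13 were seen in at least 25 cells, led by the ubiquitin ligase subunit gene Btrc, the casein kinase gene Csnk1a1 and the phosphatase scaffold gene Ppp2r1a, each in 49 cells with medians of 9.19, 43.8 and 32.4 TPM. Gsk3a, the other GSK3 gene, was seen in 5 cells, and Apc2 in none.

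Sp5 (ENSMUSG00000075304, chr2:70474923-70477729, plus strand), a zinc finger gene directly switched on by beta-catenin and TCF, varied most. It was listed at 0 in 18 cells and ranged up to 616 TPM around a median of 6.56 TPM. In the 30 cells where it was seen the median was 57.5 TPM, and 24 of the 30 were at 10 TPM or more. Its SD on the log2(TPM + 1) scale was 3.30, against 0.80 for Ctnnb1 and 1.81 for Tcf7. Sp5 was seen in 19 of 32 and 11 of 18 cells of the i7 sets, with medians of 24.6 and 3.29 TPM. By i5 index it was seen in 19 of 26 cells with N502 to N505 and 13 of 27 with N506 to N517, with medians of 24.6 and 0.54 TPM, where an averaged cell with libraries in both sets was counted in each. Leaving out a single i5 index moved the Sp5 median to between 3.84 TPM (without N508) and 20.9 TPM (without N507), so the median of 6.56 TPM rests on which cells are counted.

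By median the order was Ctnnb1, Sp5, Tcf7, Tcf7l2, Axin1, Apc, Lef1, Gsk3b, Bcl9 and Tcf7l1. Sp5 and Tcf7 differed by too little to be ordered: Sp5 was the lower without i5 index N504 (4.16 against 4.64 TPM), and at 0.54 TPM within i5 N506 to N517 it lay below Tcf7 (3.78), Tcf7l2 (3.45), Axin1 (2.98) and Apc (2.1). Among neighbors in this order, interquartile ranges were apart only for Ctnnb1 and Sp5, and even there Sp5 was the higher in 7 cells. The near-identical library pairs, which were picked because their whole profiles agree, were read for the 10 genes as a description. Of the 60 comparisons of a gene within a pair, the gene was seen in both libraries in 28, in neither in 28 and in 1 of them in 4. The median difference within pairs on the log2(TPM + 1) scale was 0.05 for Tcf7, 0.17 for Ctnnb1 and 0.08 for Sp5, against 1.90, 0.67 and 3.42 between different cells. The value of Sp5 includes 2 pairs listed at 0 in both libraries. The largest gap within a pair was that of Sp5 in 1 pair, at 0.69 and 7.63 TPM. If a pair is 1 cDNA sequenced again, these differences do not include the loss of RNA before amplification, so they do not measure the technical share of the spread.

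Across the 50 cells, the 10 genes went together weakly. Spearman's rho of log2(TPM + 1) had a median of 0.15 over the 45 pairs of genes, against 0.05 for a member with any gene seen in at least 10 cells, and 36 of the 45 were positive. The share of positive values in that background was not computed. In 27 of the 45 pairs the sign over all cells held within both i7 sets and both i5 sets. Without the 2 cells that stood apart the median was 0.08, and the background was not computed without them. In 6 pairs (13.3%) rho was 0.3 or more, against 5.25% of all pairs of a member with another gene, and in none was it -0.3 or less (background 1.15%). These counts include the 2 cells. Leaving out the cell with the fewest genes took Ctnnb1 with Bcl9, among the 6, to 0.295. Cells share the animal, the amplification and TPM scaling, so these values describe co-variation in this sample only.

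**Figure D3:**
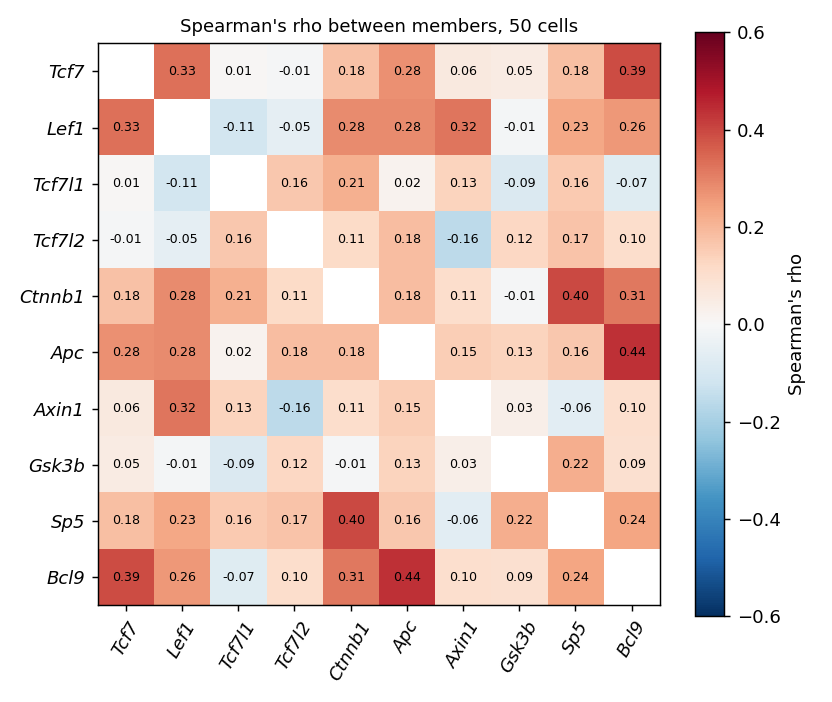
Each square gives Spearman's rho between 2 of the genes across 50 cells, printed and colored from blue (negative) to red (positive). Red prevails, with the highest values at 0.44 for Apc with Bcl9 and 0.40 for Ctnnb1 with Sp5, while Gsk3b, Tcf7l1 and Tcf7l2 have pale rows.

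The highest rho was that of Apc with Bcl9, at 0.44. Pearson's r was 0.48, and 0.35 with the 2 most extreme Apc cells left out, and rho was 0.58 and 0.21 within the first and second i7 sets. Ctnnb1 and its target Sp5 followed at 0.40 (0.29 and 0.58 within the sets), with Pearson's r at 0.44 and 0.40 without the 2 farthest cells. Sp5 was high in some cells with ordinary Ctnnb1 levels: the second highest Sp5 cell had 486 TPM of Sp5 and 139 TPM of Ctnnb1. Tcf7 and Bcl9 stood at 0.39 (0.41 and 0.38), where Pearson's r was 0.41 but 0.24 without the 2 farthest cells. Tcf7 and Lef1, both known Wnt targets, stood at 0.33 (0.37 and 0.23), Lef1 and Axin1 at 0.32 (0.35 and 0.28), and Ctnnb1 and Bcl9 at 0.31 (0.22 and 0.26).

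The main TCF genes did not vary together. The correlation of Tcf7 with Tcf7l2 was -0.01 (0.01 and -0.16 within the i7 sets), although both were seen in 27 cells, and Lef1 with Tcf7l2 stood at -0.05. Tcf7l2 with Axin1 had the lowest value of all, -0.16, and it turned from -0.24 to 0.14 between the sets. Among the 3 destruction complex genes, rho was 0.15 for Apc with Axin1, 0.13 for Apc with Gsk3b and 0.03 for Axin1 with Gsk3b. Beta-catenin RNA stood at 0.18 with Apc, 0.11 with Axin1 and -0.01 with Gsk3b.

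With Wnt target genes, the relation was stronger for most of the 10. Against the mean of 18 targets (Tcf7, Lef1 and Sp5, themselves targets, were left out), rho was 0.3 or more for 7 of the 10 genes, against 13% of 9166 genes. Their median was 0.40, against 0.11 for all genes, and 0.35 without the 2 cells that stood apart, which the background kept. The members and the list were chosen with earlier results of these data known, so this contrast with all genes is a description and not an independent test. Apc stood at 0.52, Sp5 at 0.49, Ctnnb1 at 0.47, Bcl9 at 0.44, Tcf7 at 0.40, Lef1 at 0.39 and Gsk3b at 0.34. Given the number of genes per cell, Gsk3b stood at 0.26, under the size counted, and the other 6 stayed above it. Axin1 stood at 0.20, and Tcf7l1 and Tcf7l2 at 0.04 each. Within the i7 sets the 7 were positive in both, with Apc at 0.51 and 0.49, Sp5 at 0.47 and 0.44 and Ctnnb1 at 0.36 and 0.54. Lef1 stood at 0.38 and 0.44 within the i7 sets, and at 0.67 and 0.06 within the i5 sets. Lgr5, the gene used to select the cDNAs, is in the list and was seen in 38 cells. Its rho with the 10 genes ran from -0.18 to 0.22.

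**Figure D4:**
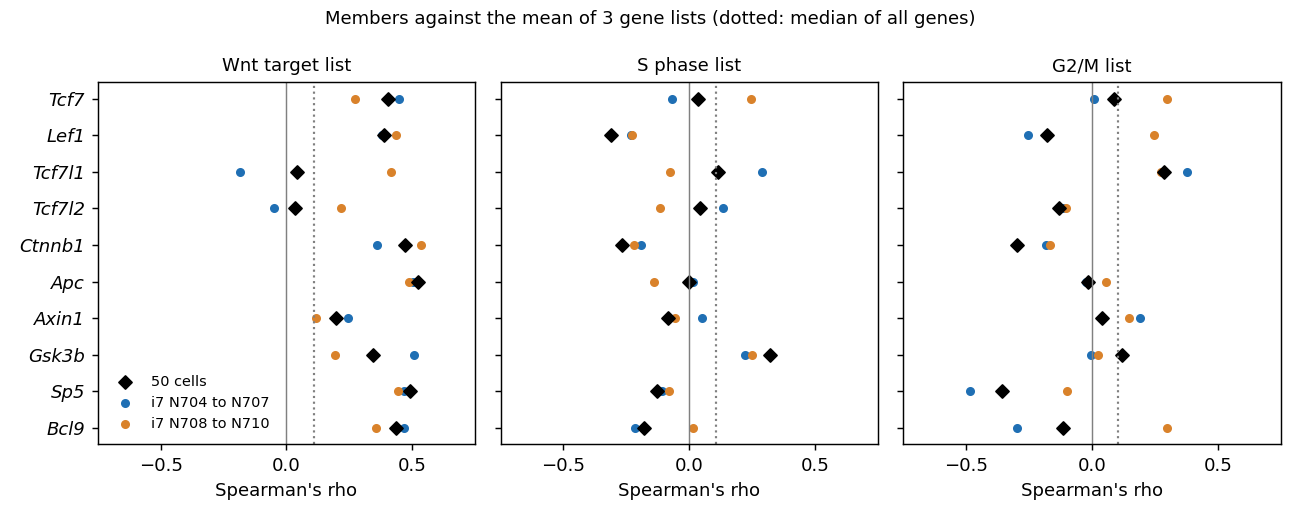
Black diamonds give Spearman's rho of each gene with the mean of 3 gene lists over 50 cells, colored points the same within each i7 set; the dotted line is the median of all 9166 genes. In the Wnt target panel 7 diamonds lie at 0.34 to 0.52 and those of Tcf7l1 and Tcf7l2 near 0, while in the S phase and G2/M panels Ctnnb1 lies at -0.27 and -0.30.

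Single targets were uneven. Of the 18, 7 had a rho of 0.3 or more with Ctnnb1, 6 with Sp5, 5 with each of Apc and Bcl9, 4 with Lef1, 3 with Gsk3b, 2 with Tcf7, 1 with Tcf7l2 and none with Tcf7l1 or Axin1. The share of all background genes that did so was 8.02% for Ctnnb1, 4.77% for Sp5, 7.39% for Apc and 5.26% for Bcl9. It was 4.92% for Lef1, 5.46% for Gsk3b, 5.24% for Tcf7, 2.6% for Tcf7l2, 4.09% for Tcf7l1 and 4.74% for Axin1. These counts and shares include the 2 cells that stood apart. Without them, Wif1 and Tbx3, among the 7 of Ctnnb1, stood at 0.26 and 0.27 with it. With Ctnnb1, Ascl2 stood at -0.06, Myc at 0.01, Cd44 at -0.05 and Ccnd1 at -0.12, and negative values past 0.3 in size were those of Ephb2 with Sp5 (-0.33) and Sox9 with Tcf7l2 (-0.34), all 6 named after their values were seen. Nkd1, an inhibitor induced by Wnt signals and seen in 47 cells, had a rho of 0.4 or more with 5 of the genes, namely Lef1 (0.52), Ctnnb1 (0.50), Bcl9 (0.48), Sp5 (0.47) and Apc (0.41). With Ctnnb1 it was 0.20 and 0.73 within the i7 sets and 0.48 and 0.56 within the i5 sets, and with Lef1 it was 0.54 and 0.34 within the i7 sets. Without the 2 cells that stood apart, Nkd1 stood at 0.50 with Lef1, 0.44 with Ctnnb1, 0.45 with Bcl9, 0.43 with Sp5 and 0.35 with Apc. Axin2, the feedback scaffold gene, stood at 0.62 with Bcl9 and at 0.42 with Ctnnb1, and at 0.59 and 0.36 without these 2 cells. Among genes seen in at least 10 cells with the same sign in both i7 sets, it had the highest rho with Bcl9. For Bcl9 and Axin2 rho was 0.59 and 0.65 within the i7 sets and 0.75 and 0.49 within the i5 sets, and Pearson's r was 0.54, and 0.49 with the 2 most extreme Axin2 cells left out. Bcl9 also went with the inhibitor gene Apcdd1 (0.47). Sp5 went with the genes of the secreted inhibitors Notum (0.47) and Wif1 (0.46), and Lef1 with the T-box gene Tbx3 (0.46, and 0.37 and 0.44 within the i7 sets) and the receptor ligase gene Znrf3 (0.42, and 0.48 and 0.28). Prox1, named in the study's title and included in the list, stood at 0.50 with Ctnnb1 (0.45 and 0.22 within the i7 sets), 0.38 with Lef1 (0.41 and 0.31), 0.32 with Apc, 0.29 with Bcl9 and 0.25 with Sp5, and at -0.04 with Tcf7l2. With the 2 cells that stood apart left out, Prox1 stood at 0.47 with Ctnnb1, 0.35 with Lef1 and 0.26 with Apc, and Znrf3 at 0.39 with Lef1.

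**Figure D5:**
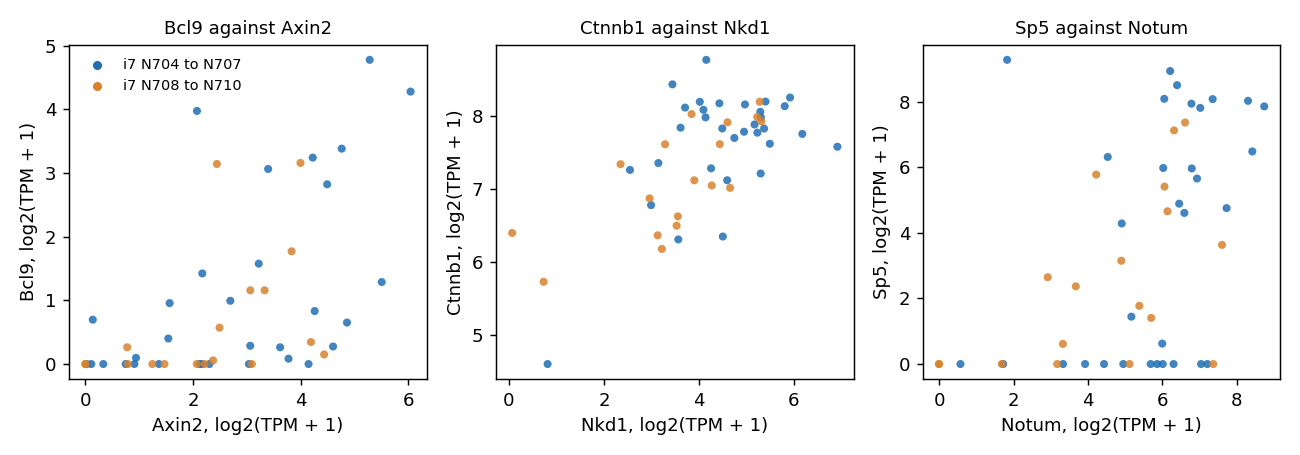
Each point is 1 of 50 cells on log2(TPM + 1) axes, colored by i7 set. Bcl9 lies above 2 only in cells with Axin2 at about 2 or more (rho 0.62), Ctnnb1 goes with Nkd1 with 3 cells at low Nkd1 (rho 0.50), and Sp5 is listed at 0 over a wide range of Notum (rho 0.47).

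Of the pathway's repressor side, 8 of 14 corepressor and antagonist genes were seen in at least 25 cells, led by Aes (49 cells), Hdac1 (46) and Hbp1 (44), and Tle2 was seen in none. With the mean of this list, rho was 0.3 or more for Tcf7 (0.38) and Apc (0.35), 2 of the 10 against 8.3% of all genes. Given the number of genes per cell Apc stood at 0.298. No single gene of the list reached 0.3 with Tcf7. The Groucho gene Tle4, seen in 5 cells, stood at -0.32 with Tcf7 (-0.40 and -0.17 within the i7 sets). Tle1, a Groucho repressor gene seen in 32 cells, stood at 0.53 with Lef1 (0.58 and 0.19 within the i7 sets). Nlk, a kinase that phosphorylates TCF/LEF proteins, was seen in 15 cells and stood at 0.51 with Apc, 0.44 with Bcl9, 0.42 with Lef1 (0.48 and 0.09 within the i7 sets) and 0.41 with both Ctnnb1 and Sp5. Without the 2 cells that stood apart, Nlk stood at 0.48 with Apc, 0.40 with Bcl9, 0.39 with Lef1, 0.36 with Ctnnb1 and 0.37 with Sp5. Aes, a short Groucho gene, stood at 0.46 with Tcf7l1, but Pearson's r there was 0.14, and 0.43 with the 2 most extreme Aes cells left out. Tcf7l1 was seen in 6 cells and its upper quartile was 0.07 TPM, so these values rest mostly on levels near the floor.

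Of 12 coactivator genes, 5 were seen in at least 25 cells, led by the chromatin remodeler gene Smarca4 (47 cells), the mediator kinase gene Cdk8 and Pygo2 (36 each). Only Ctnnb1 had a rho of 0.3 or more with their mean, at 0.46 (0.20 and 0.81 within the i7 sets), 1 of the 10 against 10.7% of genes. Ep300, a histone acetyltransferase gene seen in 13 cells, stood at 0.42 with Ctnnb1, and at 0.39 without the 2 cells that stood apart.

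With the mean of the further destruction complex genes, 5 of the 10 had a rho of 0.3 or more, against 12.1% of all genes. They were Apc (0.49), Ctnnb1 (0.48), Lef1 (0.40, and 0.33 and 0.34 within the i7 sets), Bcl9 (0.34) and Axin1 (0.31); Gsk3b stood at 0.01. Axin2 belongs to both this list and that of the targets, so these lists are not separate views. Apc went with Tnks2 (0.48), the gene of a tankyrase that turns over axin, with the casein kinase gene Csnk1e (0.42) and with the ubiquitin ligase gene Cul1 (0.41). Axin1 also went with Csnk1e (0.47), and Tcf7 with the ligase subunit genes Fbxw11 and Skp1a (0.41 each). Without the 2 cells that stood apart, Apc stood at 0.42 with Tnks2, 0.37 with Csnk1e and 0.36 with Cul1. Axin1 with Csnk1e then stood at 0.42, and Tcf7 with Fbxw11 and Skp1a at 0.35 each.

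At the junctions, where beta-catenin links E-cadherin to the cytoskeleton, 5 of 6 genes were seen in at least 25 cells, led by Cdh1 (E-cadherin, 50 cells), Ctnnd1 (49) and Ctnna1 (47). Correlation with their mean was 0.3 or more for 4 of the 10 genes, against 11.5% of all genes: Ctnnb1 (0.41), Tcf7l2 (0.35), Axin1 (0.34) and Apc (0.33). Given the number of genes per cell Apc stood at 0.29, which leaves 3. Tcf7l2 stood at 0.43 with Cdh1 (0.47 and 0.34 within the i7 sets), and at 0.39 without the 2 cells that stood apart.

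With cell cycle genes, Ctnnb1 had negative values. Of 20 S phase genes, 12 had a rho of -0.3 or less with Ctnnb1, against 2.38% of genes seen in at least 10 cells, and of 25 G2/M genes 13 did. Some of these 13 would not pass that filter: Bub1 and Anln were seen in 5 cells each, Cenpf and Hmmr in 6 each and Kif20b in 4. Values with Ctnnb1 were -0.52 for the chromatin helicase gene Hells, -0.50 for the replication helicase gene Mcm5 and -0.50 for the mitotic kinase gene Aurkb, the last 2 picked after their values were seen. With the means of the lists, Ctnnb1 stood at -0.27 for S phase and -0.30 for G2/M, and at -0.33 and -0.35 given the number of genes per cell. Within the i7 sets these were -0.19 and -0.22 for S phase and -0.18 and -0.17 for G2/M, smaller than over all cells.

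Lef1 stood at -0.31 with the S phase mean (-0.23 within each i7 set), with 9 of its 20 genes at -0.3 or less, against 1.95% of all genes. These 9 lay between -0.49 (Hells) and -0.21 (Mcm6) within i7 N704 to N707. Within N708 to N710 they lay between -0.29 (Mcm6) and -0.02 (Rpa2), so none reached -0.3 there. For the S phase mean, Lef1 was 1 of the 10 at -0.3 or less, against 1.06% of all genes. Sp5 stood at -0.36 with the G2/M mean, again 1 of the 10, against 1.6% of all genes, but at -0.49 and -0.10 within the i7 sets. Gsk3b had the one positive S phase value over 0.3 (0.32, 1 of 10 against 14.9% of genes). Gsk3b also went with the number of genes per cell (0.37), as did the S phase mean (0.64), and its S phase value given that number was 0.12. None of the 10 reached 0.3 with the G2/M mean (background 15.4%), where Tcf7l1, mostly near the floor, was the highest at 0.29.

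Genes most like each of the 10 were taken as the 5 highest and 3 lowest rhos with the same sign in both i7 sets among genes seen in at least 10 cells. These are extremes of 9165 values each, so high values arise by selection. For Ctnnb1 they were Ptk2, the focal adhesion kinase gene (0.68), Itpkc (0.65), the tubulin cofactor gene Tbcb (0.64), the stress-induced phosphatase subunit gene Ppp1r15a (0.61) and Pank3 (0.60), and the lowest were Hells, Cenpx and Rtel1 (-0.52 each), of which Rtel1 encodes a DNA helicase. For Sp5 they were the respiratory chain gene Ndufa6 (0.60), the RNA-binding protein gene Tia1 (0.59), Mtch1 (0.57), Ube2r2 (0.56) and Idua (0.55), and the lowest were Hmgn5 (-0.49), Shf (-0.48) and Impa2 (-0.47). For Bcl9, Axin2 was followed by Ndel1 (0.59), Gprasp1 (0.58), Dram2 (0.56) and N4bp3 (0.55), and the lowest were Ero1l (-0.51), Syne4 (-0.49) and Rfxap (-0.46).

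The same lists are given for the TCF/LEF genes, and their overlap was not measured. Tcf7 was closest to Ccdc32 (0.62), Fam207a (0.59), Fam173a and the proton pump gene Atp6v1b2 (0.57 each) and the signalosome gene Cops3 (0.56), and farthest from the mitochondrial creatine kinase gene Ckmt1 (-0.44), Vipr1 (-0.43) and Smoc2 (-0.39), a crypt base gene. Lef1 was closest to Ccar1 (0.59), the endoplasmic reticulum stress gene Herpud1 (0.56), Jmy and the chemokine gene Cxcl2 (0.55 each) and Tle1 (0.53), and farthest from Hoga1 (-0.61), Cotl1 (-0.53) and Gmpr (-0.51). In the second i7 set, with 1 cell at 1 TPM of Lef1, these 5 highest values were 0.12 to 0.41. Tcf7l2 was closest to the amino acid transporter gene Slc38a2 (0.54), Mon1a (0.54), Zswim8 (0.50), Banp (0.47) and Katna1 (0.47), and farthest from the proteasome gene Psmc5 (-0.48), 1110028F11Rik (-0.46) and the mediator gene Med19 (-0.45). Tcf7l1, seen in 6 cells, was not ranked.

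For the destruction complex, Apc was closest to Lhpp (0.61), Gfm2 (0.59), Gtdc1 and Cnksr1 (0.57 each) and Tcf12 (0.56), a basic helix-loop-helix factor gene outside the TCF/LEF family despite its name, and farthest from Inppl1 (-0.52), Zfp870 (-0.39) and Ssx2ip (-0.38). Axin1 was closest to S100a16 (0.53), the GTPase genes Nras (0.50) and Rac1 (0.49), Mgat4d and Npepps (0.49 each), and farthest from Nudt1 (-0.52), Ndor1 (-0.43) and Pla2g10os (-0.42). Gsk3b was closest to the heat shock factor gene Hsf1 (0.55), Wdr73 (0.52), Slc35a2, the splicing factor gene Srsf2 and Wrb (0.51 each), and these 5 stood between 0.41 and 0.49 given the number of genes per cell. Its lowest were the pseudogene H2-K2 (-0.45), whose reads may be shared with other class I genes, and Zfp184 and Ddx46 (-0.44 each).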

How the data were processed

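RNA of single tumor cells was sequenced after Bead-seq cDNA synthesis, per the labels, and the authors deposited 1 table of TPM for 56 libraries. The submitters' processing notes name RSEM 1.2.31, Bowtie2 2.2.9, bcl2fastq 1.8.4 and the build GRCm38.p4, without settings, annotation or strandedness. TPM hold no counts, so depth is unknown and the precision of a single value cannot be given. Ensembl IDs were named from GENCODE M21 for GRCm38 (24235 matched, 175 had no symbol), which also gave coordinates.

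The labels name 1 group, and cells of 1 mouse are not replicates, so nothing was tested. Library pairs with Pearson's r above 0.9 on log2(TPM + 1) were averaged. A gene was seen at 1 TPM or more; shares have Clopper-Pearson 95% intervals. Correlations are Spearman's rho on log2(TPM + 1), a list's level is its mean, and 9166 genes seen in 20% of cells (10) were the background, with 0.3 as the size counted. Partial rho was computed given genes per cell. The rho computation was tested on simulated data. No doublet caller was run, since cells were sorted singly and TPM hold no counts.

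Named genes were all members, the 3 most frequent and the unseen genes of each pathway list, list genes with a rho of 0.4 or more with a member, the 5 highest and 3 lowest genes by rho, and Prox1; other list genes were named after their values were seen. The members and lists were chosen with earlier results of these data known. Alternatives were other thresholds, Pearson's r, also with pseudocounts of 0.1 and 10, partial rho, other gene filters, 56 libraries, index sets apart, each i5 index left out, TPM without ribosomal genes and Gm10925, and, added after seeing the data, leaving out the defensin-high cell with the cell of fewest genes. Upstream windows came from RefSeq on GRCm38.p6 by symbol and were used for 8 members. Axin1 had no entry there, and Apc was not used here. Computation used SciPy 1.17.1, pandas 2.3.3 and numpy 2.4.6 in Python 3.11.15, with figures from matplotlib 3.10.9.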

Additional observations from a re-analysis of the deposited data

How the results depend on the processing

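The detection threshold set the counts. Cells with 2 or more TCF/LEF genes went from 68% to 98% when any value above 0 TPM counted and to 4% at 10 TPM, the median number of the 10 genes per cell from 5.5 to 9 and 2, and the genes seen in at least 25 cells from 6 to 10 and 1. With i7 indexes N708 to N710 alone, 50% of cells held 2 or more TCF/LEF genes. Lef1 was seen in 54% of cells when TPM were rescaled without ribosomal protein genes and Gm10925. Over all alternatives, the median rho among the 10 genes, at 0.15, lay between 0.08 (without the 2 cells that stood apart) and 0.17, that with the Wnt targets, at 0.40, between 0.26 (i5 N506 to N517) and 0.46, and that with the S phase list, at -0.04, between -0.15 and 0.02, so it has no stable sign. A move of a rho was counted when over 0.15, a size as large as the first of these values. No paired analysis was possible because the labels give 1 group and no replicate numbers. Depth is unknown and all cells come from 1 mouse. cDNAs negative for Lgr5 by PCR were not sequenced, so they cannot be compared with the positive ones. In the TPM values Lgr5 was seen in 38 of the 50 cells, and in the rest a low value cannot be told apart from missed RNA.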
